A study of Mus musculus with 12 samples.

Results

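The genes described here are 10 members of the cellular response to amino acid shortage and to stress of the endoplasmic reticulum (ER): Asns, Atf4, Ddit3, Trib3, Chac1, Hspa5, Xbp1, Atf3, Sesn2 and Herpud1. They were taken by gene symbol from the annotation of the array, which gave 18 of its 25697 probes and 10 of its 18097 symbols. The list was selected on the AMI values of Asns, after higher levels of this gene had been seen under amitriptyline (AMI) in these same arrays, to ask whether that pattern extended to other genes of the response. The AMI values of the members are therefore a description and carry no test of their own, whereas the hippocampus was compared with the cortex, which the choice of the list did not use, by a test.

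RNA came from the hippocampus and the cortex of male 3xTgAD mice, which were 14 months old at the start and had AMI-hydrochloride at 100 µg per g of body weight (the AMI group) or plain water (the vehicle group) to drink for 4 months. Each of the 4 combinations of tissue and treatment had 3 arrays, 12 in all, of the Illumina MouseRef-8 v2 type. Every mouse carried the transgenes of the 3xTgAD line, a model of Alzheimer's disease in which mutant human amyloid precursor protein and tau are expressed from a neuronal Thy1 cassette beside a mutant presenilin 1, and a group without transgenes was not part of the comparison. Which mouse gave which array is not stated, so the SDs and p-values below measure the spread between these samples.

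When uncharged transfer RNA or unfolded ER protein accumulates, kinases phosphorylate the translation factor eIF2 alpha, bulk translation slows, and translation of the transcription factor ATF4 goes up. ATF4 and its partners then switch on genes for amino acid synthesis and uptake, and under prolonged stress the proapoptotic factor CHOP, encoded by Ddit3. The other ER sensors, ATF6 and IRE1, act through cleavage of ATF6 and splicing of the Xbp1 transcript and raise chaperones such as BiP, encoded by Hspa5. In the brain the pathway has been studied for its part in memory formation and in neurodegeneration.

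The annotation places 3 probes on the Asns transcript, at bases 277, 1571 and 1801. The sequences of those at bases 277 and 1571, both in the coding sequence, are given because the probes of this gene differed in what they measured. Each is 50 bases long and is printed 5′ to 3′ as the array's annotation lists it.
Asns, base 277 (ILMN_2636755): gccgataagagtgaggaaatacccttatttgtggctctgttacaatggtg
Asns, base 1571 (ILMN_3006123): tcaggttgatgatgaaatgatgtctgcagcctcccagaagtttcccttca
The probe at base 1571 lies on chromosome 6, minus strand, in 2 segments between 7625477 and 7625994, in coordinates whose build the annotation does not name. The probes at bases 277 and 1801 have no position there.

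The promoters of the members were searched on both strands for the core of the C/EBP-ATF response element (CARE), the site ATF4 binds with C/EBP partners, written here as TGATGNAA. The windows were those of RefSeq on GRCm38.p6, from 250 bases before to 50 bases after the start of each gene, and all 10 members had 1. The core was found in 5 of the 10 members and in 3.97% of the 32851 windows of all genes. The matches are printed on the strand of the gene, with the core in capitals.
Asns, chr6:7693215-7693242, minus strand: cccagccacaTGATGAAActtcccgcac
Atf3, chr1:191183426-191183453, minus strand: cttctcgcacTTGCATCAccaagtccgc
Chac1, chr2:119351039-119351066, plus strand: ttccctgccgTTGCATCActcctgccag
Herpud1, chr8:94386307-94386334, plus strand: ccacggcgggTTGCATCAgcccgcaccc
Trib3, chr2:152344029-152344056, minus strand: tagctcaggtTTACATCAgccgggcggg
In Asns the core read in the direction of the gene, 23 bases before the start, and in the other 4 it lay on the opposite strand. The ER stress response element (ERSE), written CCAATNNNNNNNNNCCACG, was found only in Hspa5 among the members, 65 bases before the start, and in 0.119% of all windows.
Hspa5, chr2:34772020-34772048, plus strand: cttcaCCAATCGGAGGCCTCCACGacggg
The cyclic AMP response element TGACGTCA (1.79% of all windows) and the XBP1-bound element TGACGTGG (0.676%) were in 0 of the 10 member windows. These matches describe letters in a window and say nothing of binding.

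Levels are given as z-normalized log2 values: the log2 signal of a probe minus the mean of all probes of that array, divided by the SD of that array and rescaled by 1.60, the average of the 12 SDs. A level of 0 is thus the mean of all probes of an array, and levels of different probes are not comparable with each other. Each array detected between 12588 and 13280 probes at a detection p of 0.05 or less, and undetected probes had a median signal from 52.2 to 63.3 on hippocampal arrays and from 65.1 to 73.2 on cortical arrays. A probe was taken as detected in a tissue when at least 3 of its 6 arrays detected it. Of the 18 member probes, 12 were detected in both tissues, and they represent 7 genes: Asns, Atf4, Ddit3, Chac1, Xbp1, Sesn2 and Herpud1.

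The tissue labels were checked against marker genes. All 6 hippocampal identity genes that could be tested differed between the tissues by limma at an adjusted p under 0.05, 5 of them higher in the hippocampus, and Wfs1 lower; with median centring the other 5 kept their call and Wfs1 did not. Of 8 cortical identity genes 6 were lower in the hippocampus, Tbr1 and Mef2c among them, and Fezf2 and Bcl11b were higher. Within the hippocampus all tested markers of 2 cell types had lower means under AMI. All 7 oligodendrocyte markers were lower on average under AMI, with a median difference of -0.46, and their mean level ran from 3.61 to 3.98 on AMI arrays and from 3.93 to 4.46 on vehicle arrays. All 5 tested choroid plexus markers were also lower, with a median of -0.97, and their mean level ran from 0.39 to 0.92 under AMI and from 0.62 to 3.50 under vehicle. None of these markers was called, and their part in the values of the members was not tested. In whole tissue, fewer cells of a type and less RNA per cell cannot be told apart.

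Asns encodes asparagine synthetase, the enzyme that makes asparagine from aspartate and glutamine. Of its 3 probes, only the one at base 277 had every AMI array above every vehicle array in both tissues. At base 277 the hippocampal levels were -0.68, -0.70 and -0.92 on vehicle arrays 1 to 3 and -0.53, -0.47 and -0.48 on AMI arrays 1 to 3. The cortical levels were -0.78, -0.94 and -0.58 on vehicle arrays and -0.32, -0.51 and -0.54 on AMI arrays. The margin between the nearest arrays of the groups was 0.15 in the hippocampus and 0.05 in the cortex. The mean difference was 0.27 (SE 0.10) among hippocampal and 0.31 (SE 0.12) among cortical arrays.

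This probe was close to background, and because part of the vehicle arrays did not detect it, no ratio is given. Its deposited signals ran from 75.0 to 119 over the 12 arrays, between 1.11 and 1.80 times the median of the undetected probes of the same array. It was detected on all 3 AMI arrays of each tissue, on 2 of 3 hippocampal vehicle arrays and on 1 of 3 cortical vehicle arrays. Before normalization the signals of the 2 groups overlapped in both tissues: in the hippocampus the lowest AMI array had 75.1 and the highest vehicle array 89.5, and in the cortex the corresponding signals were 92.3 and 92.6. After quantile normalization and after neqc, a background correction followed by quantile normalization, the hippocampal groups stayed apart and the cortical groups overlapped. The neqc differences were 0.54 for hippocampal and 0.56 for cortical arrays, over 1.5 times those above.

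The other 2 Asns probes were far above background and did not separate the groups. At base 1801 the hippocampal levels were 4.36, 4.12 and 3.95 on vehicle arrays and 4.41, 4.03 and 3.93 on AMI arrays, and the cortical levels were 3.88, 4.01 and 4.22 on vehicle arrays and 4.09, 3.92 and 4.13 on AMI arrays. The groups overlapped in both tissues, with mean differences of -0.02 (SE 0.15) and 0.01 (SE 0.12). At base 1571 the levels were 2.15, 2.30 and 2.22 against 2.21, 2.42 and 2.22 in the hippocampus, vehicle first, and 2.05, 2.18 and 1.92 against 2.23, 2.20 and 2.05 in the cortex. These groups overlapped as well, with AMI means above vehicle means by 0.06 (SE 0.10) and 0.11 (SE 0.11). Their signals were 24.9 to 66.1 times the median of undetected probes at base 1801 and 6.47 to 18.3 times at base 1571.

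**Figure D1:**
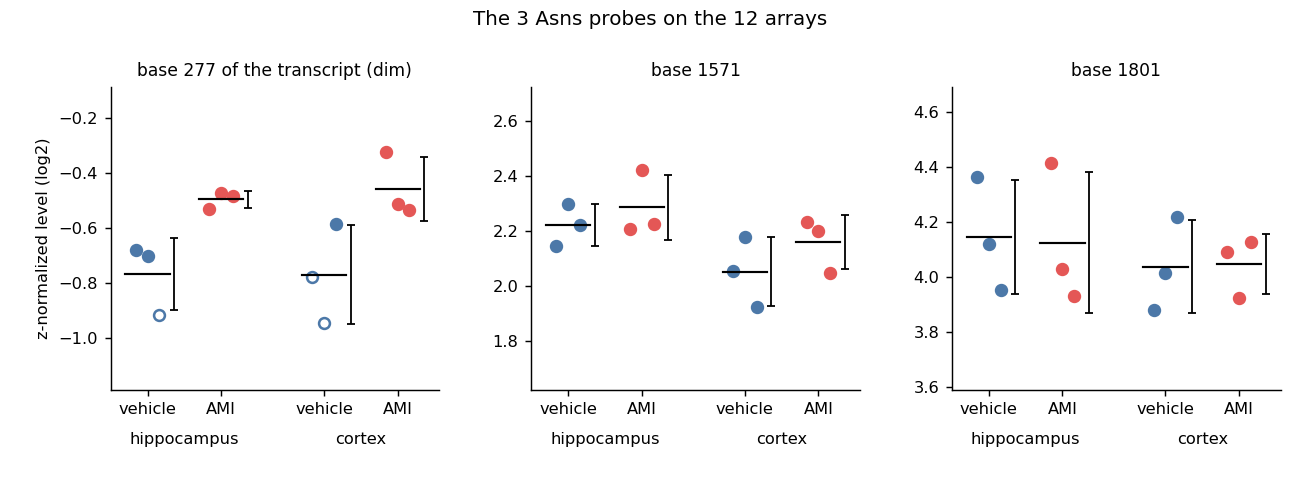
Levels of the 3 Asns probes (vertical axis, z-normalized log2, each panel with its own range) on the 3 vehicle and 3 AMI arrays of each tissue. Points are arrays, filled where the probe was detected and open where it was not, lines are group means and bars are 1 SD. AMI arrays lie above vehicle arrays in both tissues at base 277, and the groups overlap at bases 1571 and 1801.

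After z normalization the levels of the Asns probes had little in common across the arrays. Before normalization the signals at bases 1571 and 1801 moved alike over the hippocampal arrays. Both were highest on hippocampal AMI array 2 (1157 and 4181) and lowest on hippocampal AMI array 1 (450 and 1907). After each tissue was centred on its mean, the level at base 277 correlated with that at base 1571 with r = 0.24 and with that at base 1801 with r = 0.22 over 12 arrays, and the bright probes correlated with each other with r = -0.43. The 12430 probes detected in both tissues were compared with each Asns probe. Those most like base 277 were of Alkbh8 (r = 0.93), Asb6 (0.92), Rbbp6 (0.92), Fem1c (0.91) and Lrrtm2 (0.91). The Alkbh8 probe had every AMI array above every vehicle array in each tissue. The Asb6 and Rbbp6 probes had this in the hippocampus alone. Because levels were not centred on treatment, probes chosen for their likeness to base 277 tend to share its AMI difference. These separations are therefore no added observation. No chance level of r was worked out for the closest of so many probes over 12 arrays. The probes most like that at base 1801 were of G3bp2 (r = 0.96), Ank, Tulp4, Pcsk2 and Stx7, and those most like base 1571 were of Mepe (r = 0.95), Tmem49, Spin2, Tpmt and Uck2. No gene stood in more than 1 of these lists of 5. These correlations are descriptions of arrays from both tissues, which came from separate projects of the scanner software. The arrays also differed in depth: detected probes had a median signal from 162 to 330 on hippocampal and from 192.5 to 326 on cortical arrays. The part of depth in these correlations was not tested.

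Among the 12 detected member probes, no other than Asns at base 277 had its AMI and vehicle arrays apart by z normalization, to which the counts apart refer. With all AMI arrays above all vehicle arrays, 1 of 12 was apart in the hippocampus, beside 4.38% of all 13163 probes tested there, and 1 of 12 in the cortex, beside 8.1% of 12944. Both were the Asns probe at base 277, 1 of 41 probes apart in this direction in both tissues (0.33% of 12430), and 0 of 12 had all AMI arrays below, beside 3.52% of hippocampal and 4.13% of cortical probes. By limma 0 of 12 member probes were called at an adjusted p under 0.05 in either tissue, as were 0% of all hippocampal and 0% of all cortical probes, and 1 of 12 had an unadjusted p under 0.05 in each tissue, beside 2.35% of all hippocampal and 6.28% of all cortical probes tested. The interaction of tissue and treatment was called for 0 of 12 members, 0 of which had an unadjusted p under 0.05, and for 0% of the 12430 probes. Because the choice of the list used this contrast, these counts describe the members and nothing more is read from them. Of the 12 differences 7 were above and 5 below 0 in the hippocampus, where 55.0% of all probes were above, with a median of 0.02 beside 0.01 for all probes. In the cortex 10 were above and 2 below, where 57.1% of all probes were above, with a median of 0.06 beside 0.02. With median centring the hippocampal split was 10 and 2 (72.1% of all probes above), with a median of 0.13 beside 0.07, and the cortical split 11 and 1 (68.0%), with 0.13 beside 0.06. Quantile normalization and neqc each gave hippocampal splits of 8 and 4 and cortical splits of 11 and 1.

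In the hippocampus the replicate numbers met the rule for pairing arrays, so the same-numbered AMI and vehicle arrays were also set side by side. That rule looks only at same-numbered arrays. The highest of its correlations, 0.61, joined AMI array 1 and vehicle array 1, the hippocampal arrays with the lowest median signals of detected probes (162 and 188). The part of depth in that correlation was not tested. In deviations from group means AMI array 3 correlated almost as well with vehicle array 2 (r = 0.28) as with vehicle array 3 (r = 0.29), and the labels do not state a pairing. AMI was higher in all 3 pairs for 4 of 12 member probes, beside 18.4% of all probes, and lower in all 3 for 2, beside 13% of all. The former were Asns at bases 277 (0.15, 0.23 and 0.43 in pairs 1 to 3) and 1571 (0.06, 0.13 and 0.002), Chac1 (0.01, 0.31 and 0.37) and Sesn2 (0.06, 0.18 and 0.40), and the latter were Xbp1 (-0.02, -0.32 and -0.08) and Ddit3 at base 513 (-0.01, -0.14 and -0.03). With the replicate number as a block 3 of 12 had an unadjusted p under 0.05, Asns at base 277, Chac1 and Sesn2, beside 8.08% of all probes, and 0 were called. Like the counts above, these describe the members.

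**Figure D2:**
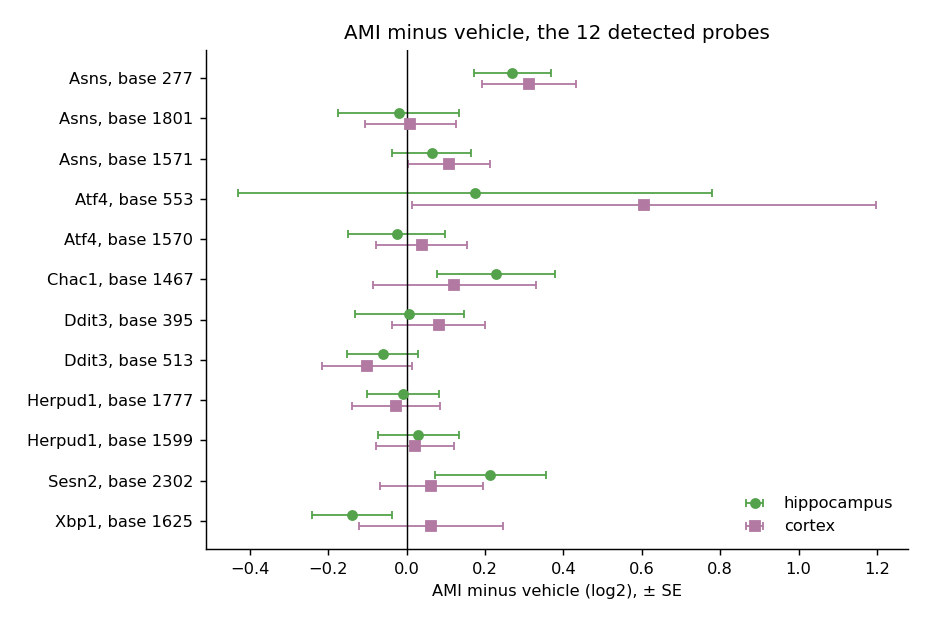
Difference between AMI and vehicle arrays (horizontal axis, log2, mean difference with its SE) of the 12 detected member probes, named by gene and base of the transcript, in hippocampus (circles) and cortex (squares), 3 arrays per group. The Asns probe at base 277 has 0.27 and 0.31, and the widest errors, 0.61 and 0.59, are those of the Atf4 probe at base 553.

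Atf4 encodes the transcription factor at the centre of the response. Its probe at base 1570, on chromosome 15 between 80087816 and 80087865 (build not named), read 3.63, 3.48 and 3.48 on hippocampal vehicle arrays and 3.75, 3.35 and 3.41 on hippocampal AMI arrays. In the cortex it read 2.88, 2.96 and 3.07 on vehicle arrays and 3.10, 2.80 and 3.12 on AMI arrays. The treatment groups overlapped in each tissue, with differences of -0.03 (SE 0.12) and 0.04 (SE 0.12), and every hippocampal array lay above every cortical array.

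The Atf4 probe at base 553 took 2 separate levels instead. On 5 arrays it read between -0.63 and -0.35 and on the other 7 between 0.87 and 1.97, with a gap of 1.22 and no array between. The low arrays were hippocampal vehicle array 1, hippocampal AMI array 2, cortical vehicle arrays 1 and 2 and cortical AMI array 3, so that both levels occurred in all 4 groups. The probe was detected on all 12 arrays, with signals from 88.7 to 652. Its AMI difference was 0.17 (SE 0.61) for hippocampal and 0.61 (SE 0.59) for cortical arrays. The low side of the gap held 1 of 3 arrays in each hippocampal group, 1 of 3 in cortical AMI and 2 of 3 in cortical vehicle. Its span of 2.60 over the arrays was wider than that of 99.7% of the probes detected in both tissues, and it did not vary with the probe at base 1570 (r = -0.07 over 12 arrays).

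**Figure D3:**
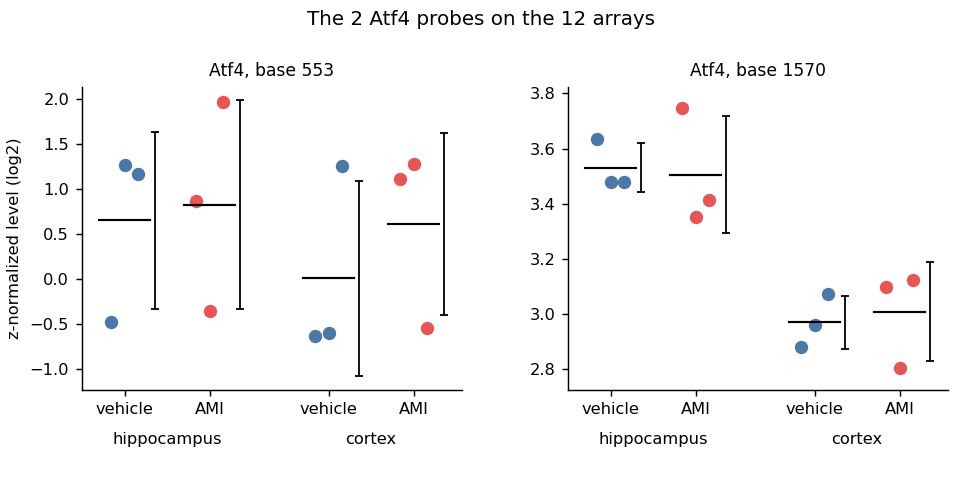
Levels of the 2 Atf4 probes (vertical axis, z-normalized log2, each panel with its own range) on the 12 arrays by tissue and treatment. Points are arrays, lines are group means and bars are 1 SD. At base 553 every group has arrays on both sides of a wide gap, and at base 1570 the 6 hippocampal arrays sit above the 6 cortical arrays.

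Ddit3 encodes CHOP. At base 395 its levels were 1.64, 1.49 and 1.14 on vehicle and 1.28, 1.47 and 1.54 on AMI arrays of the hippocampus, and 1.34, 1.30 and 0.97 against 1.34, 1.28 and 1.24 in the cortex. At base 513 they were 0.99, 0.96 and 0.90 against 0.97, 0.82 and 0.87 in the hippocampus and 0.62, 0.77 and 0.55 against 0.37, 0.55 and 0.70 in the cortex. Vehicle and AMI arrays overlapped at both probes in both tissues. The differences were 0.01 (SE 0.14) and 0.08 (SE 0.12) at base 395 and -0.06 (SE 0.09) and -0.10 (SE 0.12) at base 513, hippocampus first.

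Trib3 encodes a pseudokinase induced by ATF4 and CHOP that restrains the response. None of its 3 probes was detected on 3 arrays of a tissue. The probe at base 923 was detected on 2 of 12 arrays, both of them hippocampal AMI arrays. Its hippocampal levels were -0.97, -0.88 and -0.97 on vehicle and -0.69, -0.80 and -0.71 on AMI arrays, so that the groups did not overlap there, although the signals before normalization did, with 67.8 on the lowest AMI and 78.5 on the highest vehicle array. As no hippocampal vehicle array and not every hippocampal AMI array had the probe above background, no ratio is given. In the cortex the same probe was undetected on all 6 arrays and the groups overlapped. The probe at base 1960 was detected on 1 cortical AMI array and that at base 1523 on none.

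Chac1 encodes an enzyme that degrades glutathione and is induced through ATF4 and ATF3. Its levels were 1.15, 1.41 and 1.17 on vehicle and 1.16, 1.72 and 1.54 on AMI arrays of the hippocampus, and 2.003, 1.73 and 1.17 against 1.70, 1.99 and 1.57 in the cortex. The groups overlapped, with differences of 0.23 (SE 0.15) and 0.12 (SE 0.21). Sesn2 encodes sestrin 2, an inhibitor of mTORC1 signalling that senses leucine. Its probe at base 2302 was near background, with signals from 65.3 to 133, and read -0.80, -0.51 and -0.69 against -0.75, -0.33 and -0.29 in the hippocampus and -0.80, -0.65 and -0.46 against -0.64, -0.36 and -0.73 in the cortex, vehicle first. These groups overlapped too, with differences of 0.21 (SE 0.14) and 0.06 (SE 0.13), and its probe at base 2127 was detected on 0 arrays.

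Of the genes of the ER arms, Xbp1 encodes the transcription factor that IRE1 activates by splicing, which this probe at base 1625 does not tell apart from the unspliced form. Its levels were 3.33, 3.35 and 3.27 on vehicle and 3.31, 3.03 and 3.19 on AMI arrays of the hippocampus, and 3.27, 3.32 and 3.95 against 3.55, 3.43 and 3.75 in the cortex. The groups overlapped, with differences of -0.14 (SE 0.10) and 0.06 (SE 0.18). Under quantile normalization and neqc all hippocampal AMI arrays lay below all vehicle arrays. The share of all probes apart below under those scalings was not counted. Herpud1 encodes an ER membrane protein of the degradation machinery for misfolded proteins. Its probe at base 1777 read 3.46, 3.50 and 3.47 against 3.38, 3.57 and 3.45 in the hippocampus and 3.78, 3.95 and 3.89 against 3.71, 3.80 and 4.03 in the cortex. Its probe at base 1599 read between 2.89 and 3.23 on all arrays, and for both probes the groups overlapped, with differences between -0.03 and 0.03.

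Hspa5 encodes BiP, the main chaperone of the ER lumen, and Atf3 a stress-induced transcription factor. The single probe of each was detected on 0 of 12 arrays, with signals from 58.1 to 86.7 for Hspa5 at base 2232 and from 54.9 to 78.3 for Atf3 at base 1629. The array thus gives no measurement of either gene in these tissues with these probes, and an undetected probe does not show that the transcript was absent.

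The hippocampus was then compared with the cortex over all 12 arrays, with treatment in the model. Of the 12 member probes 4 were called by limma at an adjusted p under 0.05, beside 43.1% of all 13677 probes tested. Atf4 at base 1570 and Ddit3 at base 513 were higher in the hippocampus, and Herpud1 at base 1777 and Xbp1 were lower. The hippocampal and the cortical arrays came from separate projects of the scanner software, exported by different programs, so that tissue and run cannot be told apart in any of these differences.

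Atf4 at base 1570 had a mean of 3.52 ± 0.15 in the hippocampus and 2.99 ± 0.13 in the cortex (SD, n = 6 each), a difference of 0.53 (SE 0.09) and a ratio of 1.44. Its limma adjusted p was 0.000363, it was called within vehicle arrays and within AMI arrays as well (0.56 and 0.50), and its difference was between 0.47 and 0.97 in all alternatives. Ddit3 at base 513 had 0.92 ± 0.07 and 0.59 ± 0.14, again with every hippocampal array above every cortical one, a difference of 0.33 (SE 0.07) and a limma adjusted p of 0.00254. It too was called within each treatment, with 0.31 and 0.35, and its other probe, at base 395, had 0.18 (SE 0.10; limma adjusted p 0.138) and was called with median centring (0.41) and without hippocampal vehicle array 3 (0.25). Within vehicle arrays alone 3 of 12 members were called, beside 25.1% of all probes, and within AMI arrays 3 of 12, beside 27% of all.

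Herpud1 at base 1777 had 3.47 ± 0.06 in the hippocampus and 3.86 ± 0.12 in the cortex (SD, n = 6 each), no array of one tissue within the range of the other, a difference of -0.39 (SE 0.07) and a limma adjusted p of 0.000691; its probe at base 1599 had -0.08 (SE 0.07; limma adjusted p 0.378). Xbp1 had 3.25 ± 0.12 and 3.54 ± 0.26, a difference of -0.30 (SE 0.11) and a limma adjusted p of 0.047. These lower calls depended on the scaling, that of Xbp1 more than that of Herpud1. Herpud1 at base 1777 kept its call under quantile normalization (-0.27) and neqc (-0.28). With median centring in place of z normalization the median of all probes moved from 0.03 to 0.19, Herpud1 and Xbp1 changed sign to 0.11 and 0.17, or -0.08 and -0.02 relative to that median, and lost their calls. The split of the called members was then 5 higher and 0 lower, against 2 and 2, while the share of higher calls among all called probes went from 56.6% to 84.7%. The Xbp1 call was also lost under quantile normalization (limma adjusted p 0.080), under neqc (0.104) and when any 1 of 8 arrays was left out (0.0687 to 0.110), namely hippocampal vehicle arrays 1, 2 and 3, hippocampal AMI arrays 2 and 3, cortical vehicle array 3 and cortical AMI arrays 1 and 3. Without cortical vehicle array 3 its difference was -0.19.

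Chac1 was lower in the hippocampus by 0.34 on average (SE 0.14) and missed the threshold (limma adjusted p 0.0695). It was called under quantile normalization (-0.39), neqc (-0.45) and array weights, and without hippocampal AMI array 2 or cortical vehicle array 3. The Asns probes differed between the tissues by -0.02 (SE 0.08), 0.09 (SE 0.10) and 0.15 (SE 0.07) at bases 277, 1801 and 1571, none of them called. Base 1801 was called under quantile normalization (0.21) and median centring (0.62, or 0.44 relative to the median of all probes), and base 1571 under median centring (0.47, or 0.29). The Atf4 probe at base 553 differed by 0.43 (SE 0.49) and Sesn2 by 0.05 (SE 0.10), also without a call, and Sesn2 was called with array weights (0.20).

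**Figure D4:**
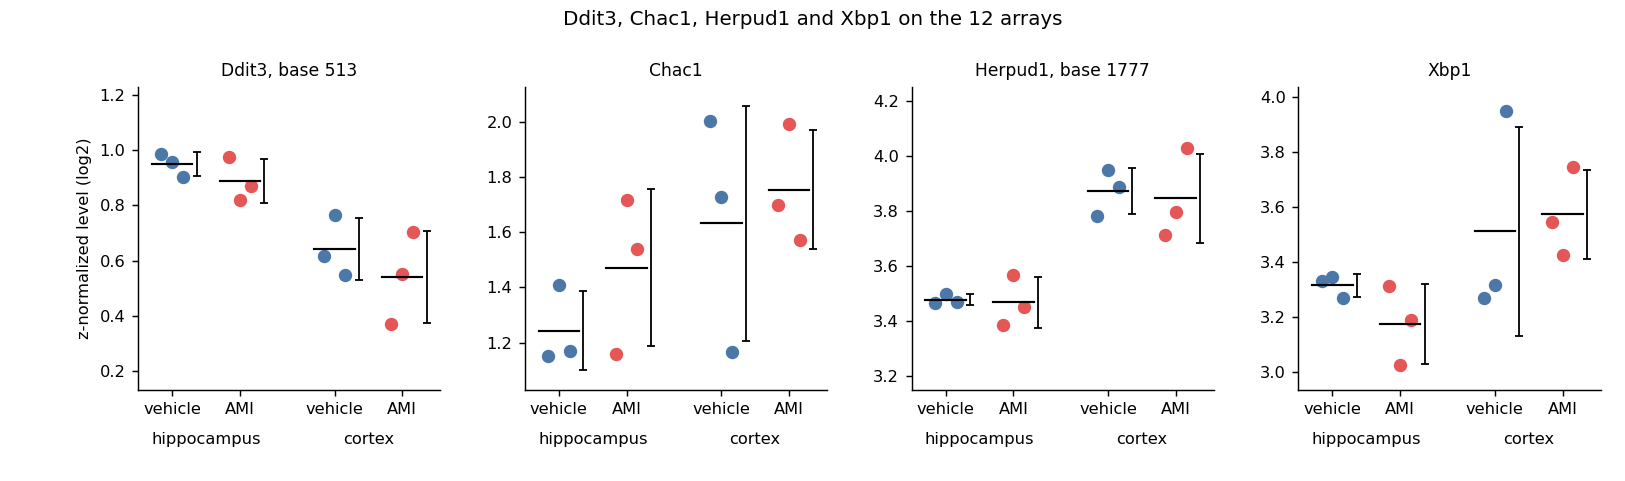
Levels of Ddit3 (base 513), Chac1, Herpud1 (base 1777) and Xbp1 (vertical axis, z-normalized log2, each panel with its own range) on the 12 arrays by tissue and treatment. Points are arrays, lines are group means and bars are 1 SD. Hippocampal arrays lie above cortical arrays for Ddit3 and below them for Herpud1, and the tissues overlap for Chac1 and Xbp1.

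Correlations between member probes differed widely from pair to pair. After centring each tissue, the 6 pairs of probes of 1 gene had r between -0.43 and 0.25, with a median of 0.12, and the 60 pairs of different genes had r between -0.86 and 0.87, with a median of -0.02. The highest was that of Asns at base 1801 with Atf4 at base 1570 (r = 0.87), and the lowest that of Chac1 with Xbp1 (r = -0.86), each over 12 arrays. Asns at base 1801 and Atf4 at base 1570 were highest on hippocampal AMI array 1, where detected probes had the lowest median signal (162). On hippocampal AMI array 2, with the highest (330), Chac1 had its highest and Xbp1 its lowest hippocampal level (1.72 and 3.03). The part of array depth in these correlations was not tested. Because probes of 1 gene did not vary closely together either, these values cannot tell whether the genes vary as a set.

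The wider pathway was read from 6 lists of 106 genes, none of them a member, of which 69 were detected in the hippocampus and 70 in the cortex. For AMI against vehicle 0 were called in either tissue. In the hippocampus 31 were higher and 38 lower on average, 2 of 69 had an unadjusted p under 0.05 (2.35% of all probes), and 1 had all AMI arrays above (4.38% of all) and 2 all AMI arrays below the vehicle arrays (3.52%). In the cortex 40 were higher and 30 lower, 4 of 70 had an unadjusted p under 0.05 (6.28% of all probes), and 7 were apart above (8.1%) and 4 below (4.13%). These shares were near those of all probes, so the genes apart that are named next describe their arrays and are no result about the lists. With median centring, which shifted the median of all probes to 0.07 and 0.06, 49 and 52 were higher, beside 72.1% and 68.0% of all probes.

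For the enzymes and transporters of the amino acid response the median AMI difference over 13 genes was -0.02 in each tissue. Slc6a9, the glial glycine transporter, was below vehicle on all hippocampal AMI arrays (-0.36, SE 0.10). In the cortex Mthfd2, a mitochondrial folate enzyme, was apart above (0.10, SE 0.09) and Shmt2, which makes glycine from serine, apart below (-0.10, SE 0.09). For the aminoacyl tRNA synthetases, which charge transfer RNA, the medians were 0.04 and -0.02 over 10 genes, with Wars apart above in the hippocampus (0.13), and in the cortex Tars apart above (0.15) and Mars apart below (-0.21). For the stress regulators downstream of ATF4 the medians were -0.04 and 0.09 over 13 genes, and Atf5, a transcription factor related to ATF4, was apart below in the hippocampus (-0.21) and averaged 0.21 in the cortex, where its groups overlapped.

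For the eIF2 alpha kinases and ER sensors the medians over 9 genes were 0.03 and -0.07, hippocampus first. In the cortex Mbtps1, the protease that cleaves ATF6, was apart below (-0.28, SE 0.11) and Eif2b4, a subunit of the exchange factor of eIF2, apart above (0.06, SE 0.09). For the ER chaperones and folding enzymes the medians were -0.02 and 0.09 over 12 genes. In the cortex Dnajb9 (0.36, SE 0.11), a cochaperone of BiP, and Pdia3 (0.32, SE 0.11), a disulfide isomerase, were apart above and Pdia4 (-0.16, SE 0.10) apart below. For ER-associated degradation the medians were -0.06 over 12 genes and 0.03 over 13, with Selk (0.21) and Derl2 (0.19) apart above in the cortex. Each of these named genes kept the sign of its difference, in the tissue where it was apart, under quantile normalization, median centring and neqc.

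Between the tissues 36 of 70 list genes were called by limma, 51.4% beside the 43.1% of all probes, 18 higher and 18 lower in the hippocampus. With median centring 27 were called, 38.6% beside 40.1% of all probes, 26 higher and 1 lower, and of all called probes 84.7% were then higher. Among those higher were Mbtps1 (0.77, SE 0.08), Cebpb (0.65, SE 0.12), a partner of ATF4, Ube2j1 (0.64, SE 0.07), a ubiquitin-conjugating enzyme of the ER, Ddit4 (0.64, SE 0.12), an inhibitor of mTORC1, and Gpt2 (0.57, SE 0.09), an alanine aminotransferase. Also higher were Edem2 (0.48), Lars (0.40), Tars (0.35), Eif2b1 (0.32), Txndc5 (0.29), Aldh1l2 (0.27) and Pdia4 (0.21). Lower in the hippocampus were Slc6a9 (-0.76, SE 0.12), Slc7a3 (-0.44, SE 0.09), a transporter of basic amino acids, Eif2ak1 (-0.47, SE 0.09), the haem-regulated eIF2 alpha kinase, Sel1l (-0.44), Calr (-0.40) and Ero1lb (-0.27), and of these Slc6a9 alone was still called with median centring. Gars (-0.55), Aars (-0.42), Impact (-0.40) and Vcp (-0.40) were lower by z normalization and changed sign with median centring.

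**Figure D5:**
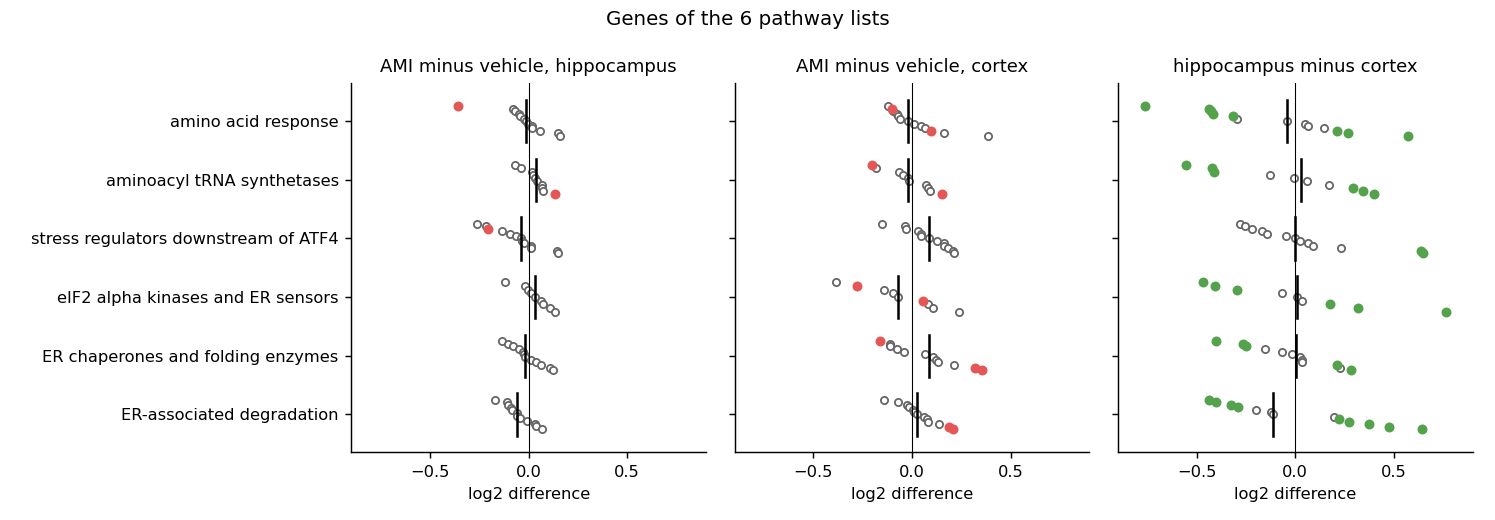
Differences (horizontal axis, log2) of the detected genes of the 6 pathway lists, for AMI minus vehicle in hippocampus and cortex and for hippocampus minus cortex. Points are genes, vertical bars are list medians; filled points in the 2 left panels are genes whose AMI and vehicle arrays do not overlap (3 in hippocampus, 11 in cortex), and in the right panel genes called by limma at an adjusted p under 0.05 (36 of 70).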

How the data were processed

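Expression was measured on 12 Illumina MouseRef-8 v2 arrays. The authors deposited, for each array, every probe's mean bead intensity on a linear scale with its detection p-value, neither normalized nor corrected for background; the submitters' processing notes name BeadStudio 3.4 and GenomeStudio 1.1.1. Of columns of per-sample values, 0 were left unused. Arrays were grouped by the tissue and treatment of their labels. The log2 intensity was z-normalized within each array, as the study's methods state, and rescaled by the average SD. A probe entered a test when 3 or more of a tissue's 6 arrays had it at a detection p no higher than 0.05, and tests used limma 3.58.1 in R 4.3.3 (lmFit, eBayes, two-sided), with Benjamini-Hochberg adjustment over all probes tested and a threshold of 0.05: AMI against vehicle on the 6 arrays of each tissue, and on all 12 arrays hippocampus against cortex and the interaction. The number of arrays limits the precision, and SEs are those of limma. A group is called apart where all its 3 arrays lie above, or below, all 3 of the other.

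All member probes are given. A list gene is read by its brightest probe; named are up to 2 genes per list and direction with the largest differences among those called between tissues, and among those apart under AMI. The members and lists were chosen with earlier results of these data known. Marker lists were of astrocytes, microglia, oligodendrocytes, neurons, endothelium, choroid plexus, hippocampal and cortical identity and immediate early genes. Besides the lists named in the report, 0 marker genes were called for AMI in either tissue, and in the hippocampus microglial markers were higher for 8 of 9, and 4 of 8 astrocyte, 2 of 4 neuron, 2 of 6 endothelial and 5 of 9 immediate early genes differed from the cortex.

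The alternatives tried were median centring, quantile normalization, neqc (offset of 16), dropping the detection filter or tightening it to a detection p of at most 0.01 on all arrays, trended robust variances, weighting of arrays, one fit over both tissues, the methods' t-test, the replicate number as a fixed or random block (statmod 1.5.0), and leaving out each array. Whether the replicate numbers pair arrays was checked by correlating deviations from group means: same-numbered AMI and vehicle arrays gave 0.61, 0.30 and 0.29 in the hippocampus, which meets the rule for pairing, and -0.06, 0.33 and 0.33 in the cortex, which does not. The rule did not use arrays of different numbers, which gave from -0.47 to 0.28 in the hippocampus. The fits of AMI against vehicle in the hippocampus and of hippocampus against cortex were tested on simulated data, and the other fits were not. Tables and figures were made with Python 3.11.15, pandas 2.3.3, numpy 2.4.6 and matplotlib 3.10.9.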

Additional observations from a re-analysis of the deposited data

How the results depend on the processing

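The count of member probes called for AMI was 0 in each tissue, and 0 for the interaction, under every alternative run. The AMI counts at an unadjusted p under 0.05 only describe the members, because the choice of the list used this contrast. The replicate block, a pairing that the labels do not state, gave 3 of 12 in the hippocampus (8.08% of all probes) and 1 in the cortex (8.69%). Those 3 were Asns at base 277, Chac1 and Sesn2. The methods' t-test gave 1 and 0 (3.67% and 6.39%) and array weights 2 and 3 (9.91% and 22.8%). The fit without a detection filter gave 2 and 1 of 18 (2.39% and 5.91%). Between tissues the count of 4, beside 43.1% of all probes, was 3 to 6 over the alternatives: 5 with the replicate block (44.1% of all), which added Chac1 (-0.34, adjusted p 0.0476), 4 with the random block (42.6%), 5 with quantile normalization (46.9%) or median centring (40.1%), 4 with neqc (47%), 6 with array weights (57.1%) and 3 to 4 when 1 array was left out (37.3% to 43.5%). The block changed no other member call. With median centring the differences of Herpud1 turned to 0.11 (base 1777) and 0.36 (base 1599), and that of Xbp1 to 0.17. The tissue difference of Asns at base 277, -0.018, was between -0.062 and 0.028 when 1 array was left out, and above 0 without hippocampal vehicle array 3, cortical vehicle array 3 or cortical AMI array 1. The causes were not tested. Signal over background limits the Asns probe at base 277, Sesn2 and Trib3, because background was not subtracted and ratios of dim probes are understated, and 6 of 18 probes were not detected.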
